A study of Mus musculus with 4 samples.

Results

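The transcripts described here encode the proteins that fold, hold and assist the glucocorticoid receptor (GR), in mouse mammary epithelial cells with normal or reduced GR. The 9 genes were the Hsp90 chaperones Hsp90aa1 and Hsp90ab1, the cochaperone Ptges3, the immunophilins Fkbp4 and Fkbp5, the coactivators Ncoa1, Ncoa2 and Ncoa3, and the corepressor Ncor1. All probes that the array annotation assigns to these symbols were taken, which gave 9 of 28146 gene names and 23 of 41174 probes. EV-50 is the control line and carries the empty shRNA vector H1-2, whereas shGR-19 carries the same kind of vector with a short hairpin against GR, and its GR status is labelled as depleted. Both are puromycin-selected isolates of EPH-4, a non-malignant mouse mammary line, co-transfected with pBABE-puro and kept in serum-free medium with 2 µg/ml puromycin and without glucocorticoid. Each line is 1 clone, so that an effect of the hairpin and a difference between clones cannot be told apart. RNA of each line (300 ng per array, labelled with Cy3) was hybridized to 2 Agilent Whole Mouse Genome arrays, and the duplicates are not described as separate cultures. The p-values therefore measure the spread between these arrays, which may be technical.

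In the absence of hormone, GR is held in the cytoplasm by Hsp90, to which the cochaperone p23 and an immunophilin of the FKBP family bind. FKBP51 keeps the receptor at low affinity for hormone, and its exchange for FKBP52, which binds the dynein motor, accompanies movement to the nucleus. On DNA, GR recruits the p160 coactivators or the corepressor NCoR, and Fkbp5 is among the genes best known to be induced by hormone-bound GR.

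The level of a probe is given as log2 of its background-subtracted intensity relative to the 75th percentile of the same array. Lines were compared with limma, and a probe was called at a Benjamini-Hochberg adjusted p below 0.01 over 24443 probes, those that were well above background in both duplicates of 1 line or of both. The same fit was made on the deposited value table, which holds log2 values centred on the median of each probe over the 4 columns, so that the middle values of a probe mirror each other around 0. Both sources are given because they differ. Over 10267 brighter probes, the SD of the log2 difference between the 2 lines was 0.0801 for the scanner arrays labelled replicate 1, less than the duplicates of EV-50 (SD 0.516) or of shGR-19 (SD 0.621). Between the lines the SD was 0.446 for the scanner arrays labelled replicate 2. It was 0.621 for EV-50 replicate 1 against shGR-19 replicate 2, and 0.521 for EV-50 replicate 2 against shGR-19 replicate 1. The corresponding SDs of the value table were 0.0961 and 0.0854 for duplicates and 0.443 to 0.452 between lines. The fold changes of the value table correlated at 0.959 with the difference between the lines on the replicate 2 scanner arrays, and at 0.121 on the replicate 1 arrays (across probes, which are not independent replicates). Of the 21 member probes analysed below, 18 had the sign of the value table on the replicate 2 arrays and 12 on the replicate 1 arrays; the exceptions on the former were 2 Ncoa2 probes and 1 Ncoa3 probe. The scaling of the table between arrays is not given in the sources used here. Whether both scanner arrays labelled replicate 1 hold RNA of the line they are labelled with could not be settled from the files, and every scanner fold change, interval and missed call below rests on those labels. Nr3c1, the gene of GR, was lower in shGR-19 by 1.95 on the log2 scale between the scanner arrays labelled replicate 2 and by 0.35 between those labelled replicate 1, while its value table log2 fold change was -1.94 ± 0.048 (SE; adjusted p = 0.00216).

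Of the 9 genes Fkbp4 was called, and this in the value table alone. Its RNA was lower there in shGR-19 with both of its probes, by 1.56-fold and 1.65-fold, and no probe of another member was called. Over all 24443 probes of that table, 6.04% were called lower and 5.53% higher, so that 2 of 21 member probes is near the share over the array. In the scanner files no member probe was called, and neither was any other (0% of all probes, smallest adjusted p 0.93, 209 probes at an unadjusted p below 0.05). Of the 23 member probes 21 passed the filter on dim probes, and the other two, both for Ncor1, were well above background on no array. The median of the 21 log2 fold changes was -0.088 by the value table (0.0087 over all probes), with 7 higher and 14 lower in shGR-19, and of 0.020 in the scanner files (0.018 over all probes), with 12 higher and 9 lower. Values of the lines did not overlap for 15 of the 21 probes in the value table, where 71.9% of all probes did not overlap, and for 3 in the scanner files, where 17.9% did not.

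**Figure D1:**
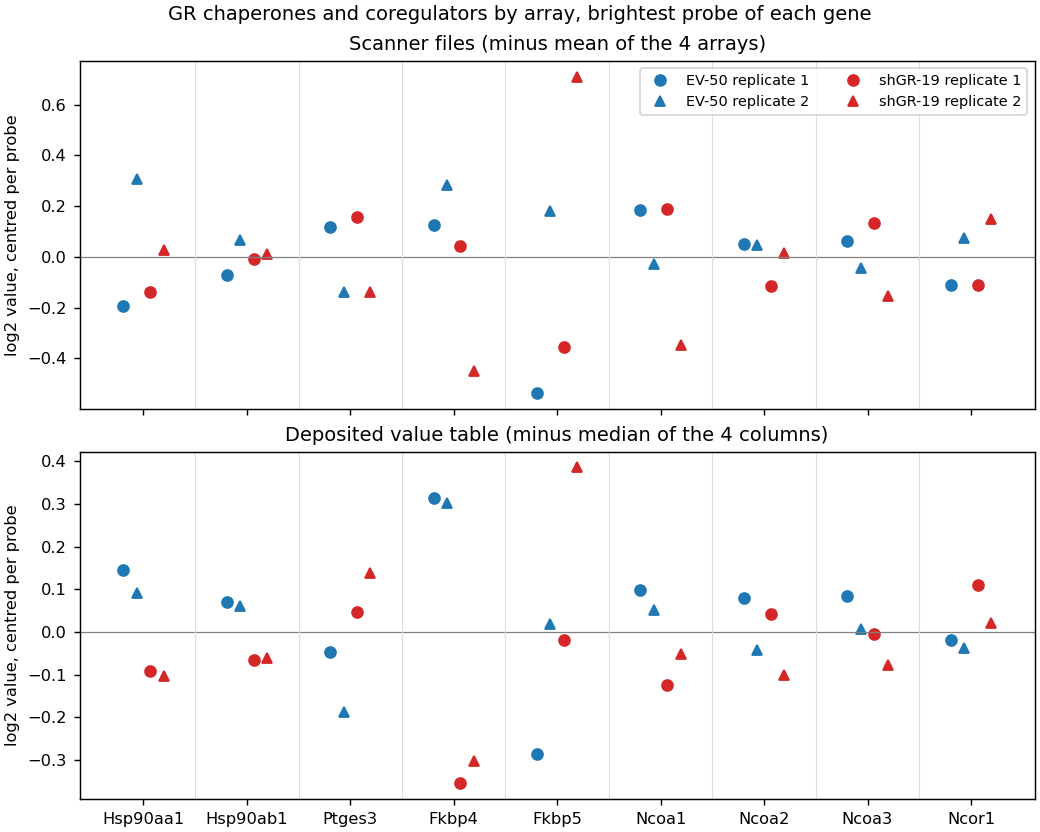
Log2 value of the brightest probe of each gene (horizontal axis) on each array, centred per probe, from the scanner files (upper panel, minus the mean of the 4 arrays) and from the deposited value table (lower panel). Blue is EV-50, red is shGR-19, circles are replicate 1 and triangles replicate 2. For Fkbp4 the EV-50 points lie above the shGR-19 points in both panels, by a log2 fold change of -0.41 and -0.64, while the scanner circles of most genes lie close together.

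Hsp90aa1 and Hsp90ab1 encode the inducible and the constitutive cytosolic Hsp90, the chaperone that holds GR ready for hormone. The Hsp90aa1 probe (mm9 chr12:111929254-111929313, minus strand) had scanner levels of 7.05 and 7.55 in EV-50 and of 7.11 and 7.27 in shGR-19. The highest and the lowest of the 4 arrays were both EV-50, so that the lines overlapped, and the log2 fold change was -0.11 ± 0.27 (SE). Its EV-50 columns of the value table held 0.15 and 0.092 and the shGR-19 columns -0.092 and -0.10. There the lines did not overlap, with a log2 fold change of -0.22 ± 0.050 (95% interval -0.36 to -0.072), but the adjusted p of 0.0450 missed the threshold. Hsp90ab1 has 2 probes (mm9 chr17:45705226-45705285 and chr17:45706503-45706562, minus strand). The brighter one had scanner levels of 8.37 and 8.51 in EV-50 and of 8.44 and 8.45 in shGR-19, with the shGR-19 arrays lying between the EV-50 arrays. Its log2 fold change was 0.0043 ± 0.21 in the scanner files and -0.13 ± 0.045 in the value table (adjusted p = 0.109, 95% interval -0.26 to 0.0037). The other Hsp90ab1 probe had -0.029 ± 0.21 and -0.18 ± 0.11 (adjusted p = 0.266). Neither source gave a call for Hsp90, and the lowest bound of the value table intervals was -0.49 on the log2 scale.

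Ptges3 encodes p23, which binds the ATP-bound form of Hsp90 and stabilizes the mature receptor complex. Its brighter probe (mm9 chr10:127513697-127513756, plus strand) had scanner levels of 4.36 and 4.10 in EV-50 and of 4.40 and 4.11 in shGR-19. The arrays were ordered by replicate number rather than by line, and the log2 fold change was 0.021 ± 0.24. By the value table EV-50 held -0.046 and -0.19 and shGR-19 0.046 and 0.14, a log2 fold change of 0.21 ± 0.078 (adjusted p = 0.123, 95% interval -0.019 to 0.44). The other probe (chr10:127513155-127513214) had 0.088 ± 0.22 in the scanner files and 0.079 ± 0.099 in the value table (adjusted p = 0.582). All 4 estimates were above 0 and none passed the test.

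Fkbp4 encodes FKBP52, the immunophilin that couples the GR complex to dynein, and Fkbp5 encodes its relative FKBP51. The 2 Fkbp4 probes and 3 Fkbp5 probes were compared base by base because the proteins are related. The longest run that a Fkbp4 probe shared with a Fkbp5 probe was 6 of 60 bases. Shown here are the brighter Fkbp4 probe (mm9 chr6:128383200-128383259, minus strand) and 1 of the Fkbp5 probes (mm9 chr17:28574995-28575054, minus strand), with capitals for the longest run these 2 have in common (5 bases):
Fkbp4 probe: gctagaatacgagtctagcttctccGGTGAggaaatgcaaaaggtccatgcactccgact
Fkbp5 probe: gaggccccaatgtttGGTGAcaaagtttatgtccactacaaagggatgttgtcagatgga

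The Fkbp4 probe printed above had scanner levels of 5.56 and 5.71 in EV-50 and of 5.48 and 4.98 in shGR-19. Both shGR-19 arrays were below both EV-50 arrays, but shGR-19 replicate 1 was only 0.081 below EV-50 replicate 1, whereas the arrays labelled replicate 2 were 0.73 apart on the log2 scale. The log2 fold change was -0.41 ± 0.27 (95% interval -1.13 to 0.32), which did not pass the test (unadjusted p = 0.199 by limma). The EV-50 columns of the value table held 0.31 and 0.30 and the shGR-19 columns -0.35 and -0.30. Duplicates thus lay within 0.052 of each other and the lines did not overlap, with a log2 fold change of -0.64 ± 0.050 (95% interval -0.78 to -0.49, adjusted p = 0.00648). Fkbp4 was lower in 2 of 2 replicate numbers there, as in the scanner files for this probe.

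The second Fkbp4 probe (mm9 chr6:128380528-128380587, minus strand) had scanner levels of 3.42 and 4.21 in EV-50 and of 3.51 and 3.51 in shGR-19. EV-50 replicate 2 stood above the other arrays, and EV-50 replicate 1 was the lowest, so that the lines overlapped (log2 fold change -0.31 ± 0.34). Its value table entries were 0.33 and 0.35 in EV-50 and -0.43 and -0.33 in shGR-19. This probe had the largest change among the members, with a log2 fold change of -0.72 ± 0.059 (95% interval -0.90 to -0.55, adjusted p = 0.00696). Neither Fkbp4 probe was called when dim probes were not filtered out (limma adjusted p = 0.0255 for the brighter one). Nor was either called by a plain equal-variance test with adjustment (0.0305 for the brighter one). Both settings removed most calls of the array, leaving 43 and 23 probes called in place of 2827. Nr3c1 itself missed the threshold under both (adjusted p = 0.0113 by limma and 0.0201 by the plain test). These losses are therefore not particular to Fkbp4. Leaving out any 1 of the 4 columns leaves 1 column for a line, so that only the fold change is given. For the brighter probe it lay between -0.66 and -0.61 on the log2 scale. In RNA of whole cultures, fewer cells with a transcript and less of it per cell cannot be told apart.

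Fkbp5 was represented by 3 probes. The brightest (mm9 chr17:28536878-28536937, minus strand) had scanner levels of -0.94 and -0.22 in EV-50 and of -0.76 and 0.31 in shGR-19. In each line the replicate 2 array was the higher, by 0.72 in EV-50 and 1.07 in shGR-19, and the lines overlapped. The log2 fold change was 0.35 ± 0.48 (95% interval -0.94 to 1.64), and it was -0.0064 without EV-50 replicate 1 and -0.18 without shGR-19 replicate 2. The value table held -0.29 and 0.020 in EV-50 and -0.020 and 0.39 in shGR-19. Replicate 2 was again the higher in each line and the lines overlapped, but the duplicates lay closer, 0.31 and 0.41 apart. The log2 fold change there was 0.32 ± 0.20 (adjusted p = 0.287, 95% interval -0.26 to 0.89). The middle probe (mm9 chr17:28537593-28537652) had 0.35 ± 0.45 in the scanner files and 0.25 ± 0.089 in the value table (adjusted p = 0.109). The probe printed above had 0.29 ± 0.23 and 0.16 ± 0.056 (adjusted p = 0.111), and its scanner levels of -3.08 and -2.75 in EV-50 were below those of -2.66 and -2.59 in shGR-19. All 3 probes had estimates above 0 in both sources without passing the test. For the brightest, an increase of up to 0.89 on the log2 scale lies within the value table interval, and of up to 1.64 within the scanner interval.

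The difference between the brightest Fkbp5 and Fkbp4 probes was also followed within each array, since both are measured on the same RNA. Centred on its mean over the arrays, Fkbp5 minus Fkbp4 was -0.66 and -0.099 in EV-50 and -0.40 and 1.16 in shGR-19 on the scanner arrays. Only shGR-19 replicate 2 stood above 0. The shift between the lines was 0.76 (exact two-sided permutation p = 0.667). The value table gave -0.64 and -0.32 in EV-50 and 0.30 and 0.65 in shGR-19, with a shift of 0.95 (exact two-sided permutation p = 0.333, the smallest that 2 against 2 allow). The lines did not overlap in this source, where 71.9% of all single probes did not overlap either, and this design cannot reach a p below 0.05. The shift contains the Fkbp4 log2 fold change of -0.64 given above.

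**Figure D2:**
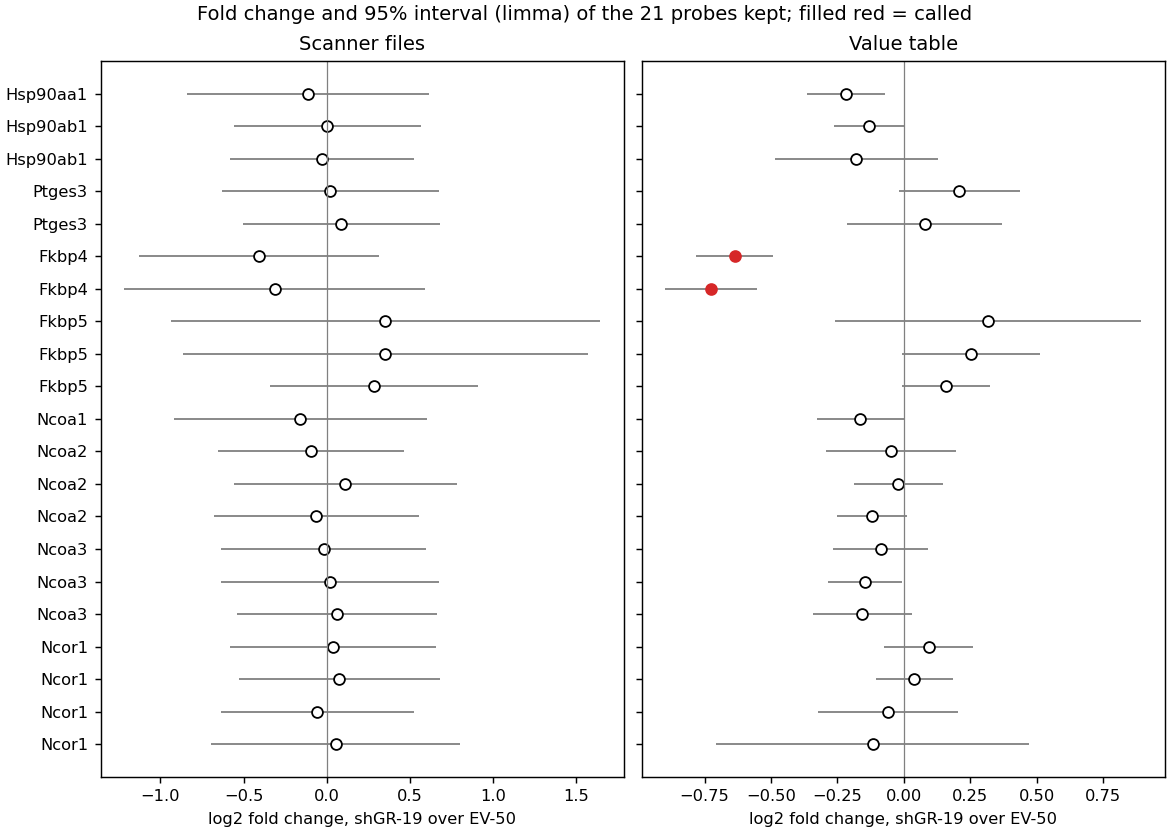
Log2 fold change of shGR-19 over EV-50 (horizontal axis; the scales of the panels differ) for the 21 probes kept, with the limma 95% interval as a bar, from the scanner files (left) and the value table (right). Filled red points were called, which were the 2 Fkbp4 probes of the value table at -0.64 and -0.72, and the interval of every probe in the scanner files includes 0.

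Promoters of the immunophilin genes are shown because Fkbp4 was the called member and Fkbp5 its relative that GR induces. RefSeq promoters (250 bases before to 50 bases after the start, build GRCm38.p6) were found for 5 of the 9 genes, and Hsp90aa1, Hsp90ab1, Ncoa2 and Ncoa3 had none in the table. The Fkbp4 window lies at chr6:128438607-128438906 and the Fkbp5 window at chr17:28486100-28486399, both on the minus strand, and capitals mark the motif matches:
Fkbp4 promoter: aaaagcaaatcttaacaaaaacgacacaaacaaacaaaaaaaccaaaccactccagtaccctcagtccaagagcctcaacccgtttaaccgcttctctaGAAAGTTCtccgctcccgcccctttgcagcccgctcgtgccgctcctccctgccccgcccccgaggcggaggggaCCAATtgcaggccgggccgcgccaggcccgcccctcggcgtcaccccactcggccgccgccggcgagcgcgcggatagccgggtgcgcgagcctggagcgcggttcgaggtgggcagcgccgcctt
Fkbp5 promoter: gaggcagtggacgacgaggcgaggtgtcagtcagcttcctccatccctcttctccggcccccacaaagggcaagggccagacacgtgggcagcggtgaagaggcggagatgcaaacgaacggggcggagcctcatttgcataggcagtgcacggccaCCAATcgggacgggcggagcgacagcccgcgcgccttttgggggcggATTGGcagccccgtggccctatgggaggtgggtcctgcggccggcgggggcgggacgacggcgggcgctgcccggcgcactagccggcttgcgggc

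Short motifs were searched on both strands, and no match overlapped another. The Fkbp4 window held 1 heat shock element (GAANNTTC or TTCNNGAA), GAAAGTTC, which starts 151 bases before the start, and 1 CCAAT box 76 bases before it. The Fkbp5 window held CCAAT 93 bases and its complement ATTGG 46 bases before the start, and no heat shock element. Neither window held a glucocorticoid receptor half-site (AGAACA or TGTTCT) or a site of the ETS factor GABP (CCGGAAG or CTTCCGG). Of 32851 RefSeq promoters, 15.1% hold such a heat shock element, 19% the half-site, 37.4% the CCAAT box and 8.86% the GABP site. Among the other members, Ncoa1 held AGAACA 38 bases after its start, 1 of the 2 Ncor1 promoters held TGTTCT 185 and 12 bases before its start and the other CCGGAAG 53 bases before, and Ptges3 held none of the motifs. These are matches of letters in short windows, and the elements through which GR acts on Fkbp5 lie largely in introns outside them.

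The p160 coactivators bind GR through short leucine-rich motifs and bring histone acetyltransferases to its target genes. Ncoa1 (SRC-1) has 1 probe (mm9 chr12:4249560-4249619, minus strand), with scanner levels of 1.49 and 1.28 in EV-50 and of 1.5 and 0.96 in shGR-19. The shGR-19 arrays were both the highest and the lowest, and the log2 fold change was -0.16 ± 0.28. Its value table entries were 0.099 and 0.052 in EV-50 and -0.12 and -0.052 in shGR-19, without overlap, and the log2 fold change was again -0.16, with an SE of 0.055 and an adjusted p of 0.102. Ncoa2 (GRIP1, TIF2), which also acts with GR in repression, has 3 probes on chromosome 1. Their scanner fold changes were -0.097, 0.11 and -0.063, with SEs from 0.21 to 0.25, and their value table fold changes -0.047, -0.020 and -0.12, with adjusted p of 0.698, 0.810 and 0.127. The brightest Ncoa2 probe lay between -2.19 and -2.02 on the 4 scanner arrays. Ncoa3 (SRC-3), known as amplified in breast cancer, has 3 probes on chromosome 2, of which the brightest had 1.80 and 1.69 in EV-50 and 1.87 and 1.58 in shGR-19. Its fold changes were -0.018, 0.020 and 0.063 in the scanner files and -0.088, -0.15 and -0.16 in the value table, with adjusted p of 0.333, 0.0933 and 0.146. For all 7 coactivator probes the value table estimate was below 0, none was called, and the lowest bound of these intervals was -0.34. The scanner intervals were wider, with a lowest bound of -0.92 for Ncoa1.

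Ncor1 encodes NCoR, which bridges nuclear receptors to histone deacetylase 3. Of its 6 probes, 3 lie on the minus strand of chromosome 11, the strand of the gene, and 3 on the plus strand, and the latter carry the names of cDNA clones. Whether the opposite-strand probes measure the Ncor1 transcript is uncertain, and 2 of them were the probes well above background on no array. The brightest probe (mm9 chr11:62131484-62132878, where its 60 bases are split) had scanner levels of 3.64 and 3.82 in EV-50 and of 3.64 and 3.89 in shGR-19. Here too the arrays paired by replicate number, and the log2 fold change was 0.038 ± 0.23. The value table gave 0.094 ± 0.057 (adjusted p = 0.280, 95% interval -0.073 to 0.26). The other gene-strand probes (chr11:62134649-62134708 and chr11:62233143-62233202) had 0.076 ± 0.22 and -0.056 ± 0.22 in the scanner files and 0.039 ± 0.050 and -0.060 ± 0.091 in the value table, with adjusted p of 0.585 and 0.647. The third opposite-strand probe (chr11:62141029-62141088) had 0.054 ± 0.28 and -0.12 ± 0.20. Ncor1 probes were thus called in neither source, and their signs differed among themselves.

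Across the members, the scanner arrays labelled replicate 1 gave higher values in shGR-19 for 16 of 21 probes and those labelled replicate 2 for 10. For Fkbp4 the pairs disagreed in size with the brighter probe (-0.081 and -0.73) and in sign with the other (0.085 and -0.71). For Fkbp5 both pairs were above 0 with all 3 probes, at 0.18, 0.045 and 0.41 for replicate 1 and at 0.53, 0.66 and 0.16 for replicate 2. The Hsp90aa1 pairs were 0.056 and -0.28, and the Ncoa1 pairs 0.0048 and -0.32. For Fkbp4, Hsp90aa1 and Ncoa1, the decrease in the scanner files lay mainly between the arrays labelled replicate 2. Of the other genes with a value table estimate below 0 by the brightest probe, Hsp90ab1 had pairs of 0.065 and -0.057, and Ncoa3 of 0.071 and -0.11. Ncoa2 went the other way, with -0.16 for replicate 1 and -0.030 for replicate 2. The SE of the members ranged from 0.21 to 0.48 in the scanner files and from 0.045 to 0.20 in the value table, where the smallest fold change called for any probe was 0.45 on the log2 scale.

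**Figure D3:**
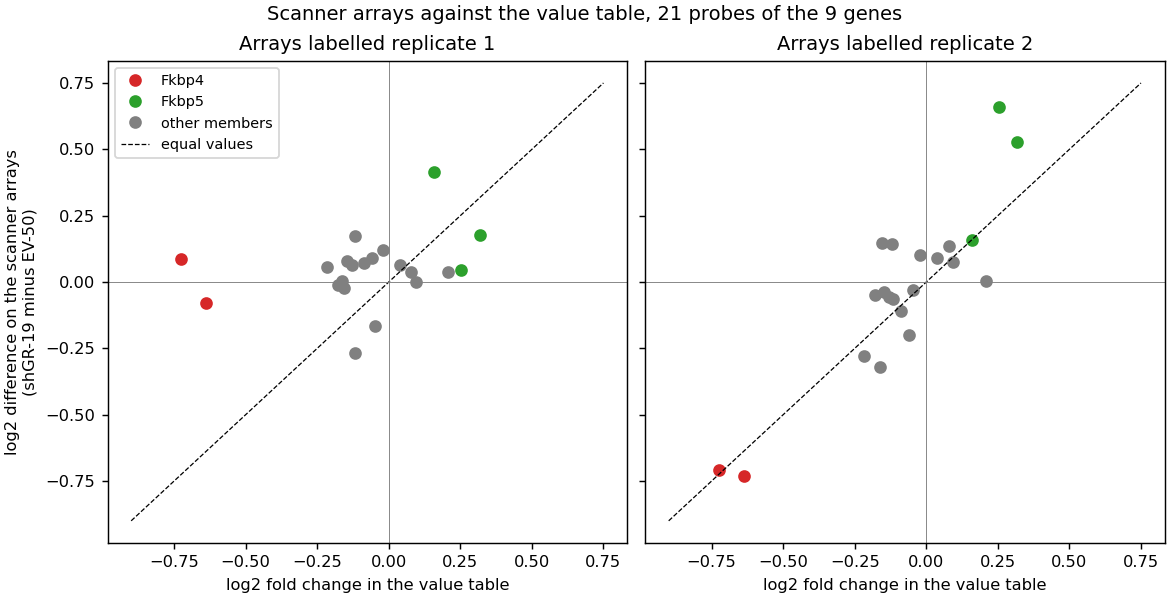
Log2 difference between the lines on the scanner arrays labelled replicate 1 (left) and replicate 2 (right) against the log2 fold change in the value table, for the 21 member probes kept, with a dashed line for equal values. Fkbp4 (red) lies at -0.081 and 0.085 on the left and at -0.73 and -0.71 on the right, near the dashed line, and Fkbp5 (green) lies above 0 in both panels.

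The wider machinery was followed in 5 lists, each gene by its brightest kept probe, and 78 of 81 genes were measured. By the value table, 5 rose and 2 fell in shGR-19, where 6.1% of all genes were called higher and 6.51% lower, and in the scanner files none was called. Among 18 further genes of the Hsp70 and Hsp90 cycle, which loads GR onto Hsp90, none was called, and the median log2 fold change was -0.039 (0.018 over all genes). The values nearest to a call were -0.29 ± 0.048 for Chordc1 (adjusted p = 0.0234), which binds Hsp90, and -0.31 ± 0.059 for St13 (adjusted p = 0.0300), the Hsp70-interacting protein Hip. Stip1, the Hop protein that bridges Hsp70 and Hsp90, had -0.019 ± 0.050, and Ppid, the cyclophilin that competes with FKBPs for Hsp90, had -0.28 ± 0.10 (adjusted p = 0.122).

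In the FKBP family, 12 of 13 genes were measured, 2 rose and none fell, with a median of 0.011. Fkbp1b, which binds ryanodine receptors, rose 2.09-fold (log2 fold change 1.06 ± 0.067, adjusted p = 0.00490), although its second probe missed the threshold (0.69, adjusted p = 0.0825). Fkbp7, of the endoplasmic reticulum, rose 1.77-fold (0.82 ± 0.056, adjusted p = 0.00543). Their scanner estimates were 0.58 and 0.37 and were not called. Among 14 heat shock genes 13 were measured, and Dnaja4, an Hsp40, rose 2.40-fold (1.26 ± 0.059, adjusted p = 0.00357), while its second probe had 0.28 (adjusted p = 0.288). Hspa1a, an inducible Hsp70, had the widest value, 2.47 ± 0.38 (adjusted p = 0.0206), against -0.71 ± 0.077 for its near-identical copy Hspa1b (adjusted p = 0.0108), and neither was called. The Hspa1a probe was dim, with scanner levels of -4.47 and -5.05 in EV-50 and of -5.12 and -4.03 in shGR-19. It was well above background on 3 arrays, and its scanner log2 fold change was 0.19 ± 0.47. The Hspa1b probe was brighter, at 1.85 and 0.74 in EV-50, with a scanner log2 fold change of -0.29 ± 0.67. The median of the heat shock genes was -0.060.

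Of 23 other coactivators, 2 rose and 1 fell, with a median of 0.012. Crebbp, the acetyltransferase CBP that p160 proteins recruit, rose 1.54-fold (0.62 ± 0.055, adjusted p = 0.00790), while its other probes had 0.54 (adjusted p = 0.0108) and 0.56 (adjusted p = 0.0459). Smarca2, the ATPase BRM of the SWI/SNF complex, rose with both kept probes (0.69, adjusted p = 0.00567, and 1.18, adjusted p = 0.00911). Ppargc1b, a coactivator of mitochondrial and oxidative genes, fell with both kept probes (-0.90, adjusted p = 0.00394, and -1.02, adjusted p = 0.00389). Of 13 other corepressors 12 were measured. Lcor, a ligand-dependent corepressor, fell 1.46-fold (-0.54 ± 0.053, adjusted p = 0.00899), its second kept probe having -0.29 (adjusted p = 0.148). The corepressor median was 0.21, with 9 genes higher and 3 lower. As for Fkbp4, all 7 calls of the lists were lost without the filter on dim probes and by the adjusted plain equal-variance test. Over the whole array, 43 and 23 probes were called under these settings, against 2827.

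**Figure D4:**
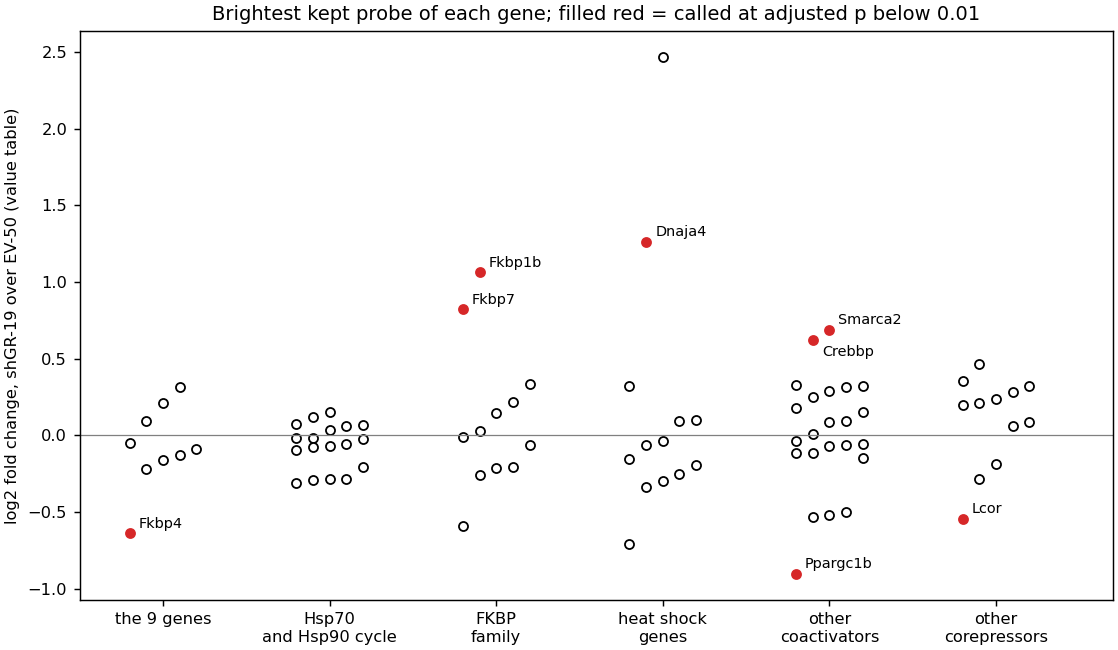
Log2 fold change of shGR-19 over EV-50 in the value table (vertical axis) for the brightest kept probe of each gene, in the 9 genes and in 5 lists of related genes; horizontal scatter within a column has no meaning. Filled red points were called at an adjusted p below 0.01, and Fkbp4 at -0.64 is the called point among the 9 genes, while the Hsp70 and Hsp90 cycle holds none.

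The labelled cell type was checked with marker lists, for which 6.1% of all genes called higher and 6.51% called lower in the value table are the comparison. Of 10 epithelial markers 9 were well above background on all 4 arrays, and none was called. The summed signal of all 10 was 734 and 650 in EV-50 and 768 and 653 in shGR-19, in units of the 75th percentile of the array. Of 11 mesenchymal markers 8 were kept and 3 rose in the value table, Vim (1.82, adjusted p = 0.00947), Col1a2 (3.27, adjusted p = 0.00120) and Pdgfrb (2.03, adjusted p = 0.00232), while Cdh2 was well above background on no array. In the scanner files none of these 3 was called. Their differences between the lines on the replicate 1 and replicate 2 arrays were 0.33 and 2.02 for Vim, -0.043 and 3.37 for Col1a2 and 0.20 and 2.16 for Pdgfrb. The other kept mesenchymal markers were not called in the value table, with -0.64 for Fn1, -0.31 for Snai2, 0.13 for Zeb1, 0.071 for Twist1 and 0.018 for Zeb2. The summed signal of the list was 12.8 and 37.6 in EV-50 and 11.6 and 75.1 in shGR-19, so that the lines overlapped and the replicate 2 arrays were the higher in each. Of 9 immune markers, 5 were well above background on all arrays, and Ptprc, Itgam and Emr1 were above it on none. The summed signal of all 9 lay between 0.521 and 0.765. Of the 6 kept, 4 had estimates below 0 in the value table, the median was -0.15, and Lyz2 was called higher (0.76, adjusted p = 0.00676), although its scanner estimate was -0.035 and its replicate 2 arrays differed by -0.30. The part of any of these differences in the Fkbp4 result was not tested.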

How the data were processed

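RNA from 2 lines on 4 one-colour Agilent arrays, all on 1 slide and read in 1 scan, was analysed. The authors deposited the intensity of each spot, background-subtracted by Agilent Feature Extraction 10.5.1.1 (per the submitters' processing notes) and not scaled between arrays. A table of log2 values from GeneSpring was deposited as well, centred on the median of each probe, with column medians of 0.076 and 0.038 (EV-50) and -0.056 and -0.063 (shGR-19) over all probes. Outlier spots (74 to 139 per array) were left out, no spot was saturated, and spots of 1 probe were averaged. The 75th percentiles were 528, 584, 516 and 579, and 21959 to 25777 probes per array were well above background. The number of arrays limits the precision.

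Lines were compared with limma 3.58.1 (lmFit, eBayes) in R 4.3.3 on log2 values with Benjamini-Hochberg adjustment over 24443 kept probes, and the steps were tested on simulated data. A call needed an adjusted p below 0.01, with no limit on the fold. The study's methods ask for more than 2-fold and a p below 0.01, and they name no adjustment for these calls. The value table was fitted in the same way, because its values differ from the scanner files. All probes of the 9 genes are reported, and of each listed gene the brightest kept probe, with the other kept probes of a called gene. The 9 genes and the lists were chosen with earlier results of these data known. Sequences are from the array annotation (mm9) and RefSeq (GRCm38.p6). Alternatives covered background correction, scaling, the probe filter, the variance model, a block for the replicate number, leaving out each array, a plain equal-variance test and the threshold. Protein, reporter and qRT-PCR data were not analysed here.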

Additional observations from a re-analysis of the deposited data

How the results depend on the processing

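In the scanner files 0 probes, member probes and list genes were called under every alternative of normalization, background, filter, variance model and threshold, with the replicate number as a block (0 probes), and without any 1 array (0 to 0), except that the value table gave 2827 probes, 2 member probes and 7 list genes, and the plain equal-variance test without adjustment gave 63 probes. In the value table the 2827 probes, 2 member probes and 7 list genes became 43, 0 and 0 with all probes kept, and 0, 0 and 0 both with the replicate block and without any 1 column (0 to 0 for each count). When a probe had to be well above background on each of the 4 arrays, 4874 probes, 2 member probes and 13 list genes were called. With an intensity trend and robust prior there were 8032, 3 and 27. The brighter Fkbp4 probe stayed called under both settings (limma adjusted p = 0.00247 and 2.51e-05). At an adjusted p below 0.05 there were 8921, 3 and 28. The plain equal-variance test called 23, 0 and 0 with adjustment and 4572, 4 and 18 without. The replicate number carries no stated meaning. Same-numbered samples deviated together (correlation over probes 0.706 in the scanner files and 0.430 in the value table), and under the block the Fkbp4 adjusted p in the value table was 0.0309. Hsp90aa1 passed in the value table with the trend and robust prior (adjusted p = 0.00325). Among uncalled values of the brightest probes in the scanner files, Ncor1 turned to -0.0044 with normexp, and Hsp90ab1 to -0.13 in the value table and -0.057 without both arrays labelled replicate 1, an alternative added after the data were seen, as were those on the lists. With 1 scanner array left out, and its lone partner assumed to vary like the other line, log2 fold changes ranged from -0.18 to 0.89 for Fkbp5, -0.36 to 0.14 for Hsp90aa1, -0.065 to 0.074 for Hsp90ab1, -0.13 to 0.17 for Ptges3, -0.43 to 0.11 for Ncoa1, -0.16 to 0.13 for Ncoa3 and -0.091 to 0.17 for Ncor1, and Fkbp4 stayed between -0.65 and -0.16. With 1 column of the value table left out, Ncoa2 ranged from -0.12 to 0.024 and Fkbp4 from -0.66 to -0.61. The cause of these changes was not tested.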

Other observations

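Across the 4 scanner arrays, the probes most like the brighter Fkbp4 probe, by Euclidean distance of the centred log2 values among 21173 probes well above background on all arrays, were those of Nup155 (distance 0.011), a nuclear pore protein, Rnf19b (0.024), a RING finger ubiquitin ligase, and Phip (0.040). In the value table Nup155 had a log2 fold change of -0.63 (adjusted p = 0.00959) and Phip of -0.69 (adjusted p = 0.00875), both called, and Rnf19b of -0.58 (adjusted p = 0.0190), not called. With 4 arrays many probes share such a pattern, and the distances are a description.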
